A study of Mus musculus with 42 samples.

Results

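The loss of Ski in mature medullary thymic epithelial cells (mTEC) was examined in 11 of the 42 libraries of a mouse thymus series, 7 labelled KO and 4 labelled Control. They were chosen from the labels alone, as the libraries sorted as Epcam+CD45-UEA+Ly51loMHCIIhi cells, a gate called MHCII-high mTEC here, with the genotype KO or Control. The gate holds 14 libraries in all. One further Control library (replicate 2) was left out because it held 41828 counts, and 2 libraries of the genotype Ski flox Control were not compared. KO stands for a deletion of Ski restricted to thymic epithelial cells, as the series' design text gives it. The labels give no genotype beyond the words KO and Control, and the Cre driver, floxed allele, strain, age and sex of the mice are not given in these sources. Each library was made from 200 sorted cells by SMART-Seq v4 and Nextera XT, and no treatment is named. Since nothing in the labels names the mouse behind a library, the p-values speak for the scatter among libraries, part of which may be technical.

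SKI is a nuclear protein without DNA-binding activity of its own. It joins SMAD proteins, which carry TGF-beta, activin and BMP signals from receptor to chromatin, and brings NCOR and histone deacetylase corepressors to their target genes, so that it limits the output of these signals. Medullary thymic epithelial cells display peripheral tissue proteins to developing T cells and so purge self-reactive clones. As they mature under RANK and CD40 signals they gain MHC class II and CD80, and the regulators AIRE and FEZF2 then switch on large sets of tissue-restricted genes. Later they can take on features of other epithelia, among them keratinocytes, tuft cells and microfold cells. The comparison of KO with Control asks which of these programmes differ in the mature cells when Ski is deleted.

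The 11 libraries held 3243909 to 5790840 counts. They fell into an early set (the lower library numbers, with 4 KO and 2 Control libraries) and a late set (3 KO and 2 Control libraries), and no label says what separates them. Libraries of the late set resembled each other more, with Spearman's rho between 0.816 and 0.838 across genes, than those of the early set, with rho between 0.680 and 0.782. KO replicates 2 and 3, both in the early set, held the fewest detected genes, 12137 and 11989, against 16839 to 20489 in the other 5 KO libraries and 18134 to 20251 in the Control libraries. All levels are CPM (TMM-normalised counts scaled by library size) without correction for gene length. Control values are listed in the order of replicates 1, 3, 4 and 5, of which replicates 1 and 3 belong to the early set.

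Ski itself was low in every library. Ski (ENSMUSG00000029050, minus strand, chr4:155154075-155222592 in GRCm38) had a lowest level of 0, a median of 6.40 and a highest level of 16.9 CPM in the KO libraries, and 8.62, 23.0, 11.2 and 11.5 CPM in the Control libraries. Of the 7 KO libraries, 5 lay below every Control library, while replicates 2 and 4, with 57 and 65 counts, lay within the Control range. The 0 counts of KO replicates 1 and 3 allow up to 0.654 and 0.808 CPM, at a limit of 3 counts that covers counting error only since the reads carry no molecular identifiers. Counts per gene do not show which exons were deleted, so reads from a shortened Ski transcript would still count as Ski. Mean Ski was 6.17 ± 6.48 CPM in KO (SD, n = 7) and 13.6 ± 6.39 CPM in Control (SD, n = 4), a log2 fold change of -1.13 with an SE of 1.37 (edgeR quasi-likelihood test, Benjamini-Hochberg adjusted p = 1). On the log2(CPM + 1) scale the difference was -1.70 (exact permutation p = 0.0970, two-sided like all tests here, and 0.455 after adjustment for the 5 tests of this kind). The difference was -1.98 within the early set (exact permutation p = 0.4, smallest possible 0.0667) and -1.38 within the late set (exact permutation p = 0.2, smallest possible 0.1). Leaving out KO replicate 2 gave -2.05 (exact permutation p = 0.0286), while leaving out each of the other 10 libraries gave exact p values of 0.0857 to 0.267, the highest without Control replicate 3, at -1.43.

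Skil encodes SnoN, the close relative of SKI that also represses SMAD targets and whose own gene is a TGF-beta target. Its level was 0, 62.8 and 115 CPM at the lowest, median and highest of the KO libraries, against 47.7, 51.4, 81.8 and 56.1 CPM in the Control libraries. KO replicate 2 had no Skil count, and the other KO libraries overlapped with Control. The log2 fold change was 0.02 with an SE of 0.87 (edgeR adjusted p = 1).

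The markers of mature mTEC were present in all 11 libraries and none of them passed a test. Aire, whose product drives much of the tissue-restricted expression in these cells, had a lowest level of 283, a median of 546 and a highest level of 1419 CPM in KO, and 664, 782, 467 and 456 CPM in Control. The groups overlapped, with 3 KO libraries above and 2 below every Control library. Mean Aire was 734 ± 394 CPM in KO (SD, n = 7) and 592 ± 159 CPM in Control (SD, n = 4). Its log2 fold change was 0.31 (SE 0.38, adjusted p = 1 by edgeR; exact permutation p = 0.727, adjusted 0.830), and 0.07 without KO replicate 1. Library set moved with the level: mean Aire in the early set was 945 CPM in KO and 723 CPM in Control, and in the late set 452 CPM in KO and 461 CPM in Control.

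Fezf2, a zinc finger factor that controls a further set of tissue-restricted genes, had 340, 488 and 632 CPM at the lowest, median and highest of the KO libraries, against 657, 701, 338 and 365 CPM in Control. All 7 KO libraries lay inside the Control range. Its log2 fold change was -0.11 (SE 0.26, edgeR adjusted p = 1; exact permutation p = 0.782, adjusted 0.830). Cd80, the costimulatory ligand for CD28 and CTLA4 that marks the mature gate, had 4.58, 47.1 and 115 CPM at the lowest, median and highest of the KO libraries, against 22.1, 81.7, 33.7 and 85.5 CPM in Control. The groups overlapped, and KO replicate 1 held the lowest value. Its log2 fold change was -0.07 (SE 0.66, edgeR adjusted p = 1; exact permutation p = 0.830, adjusted 0.830).

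**Figure D1:**
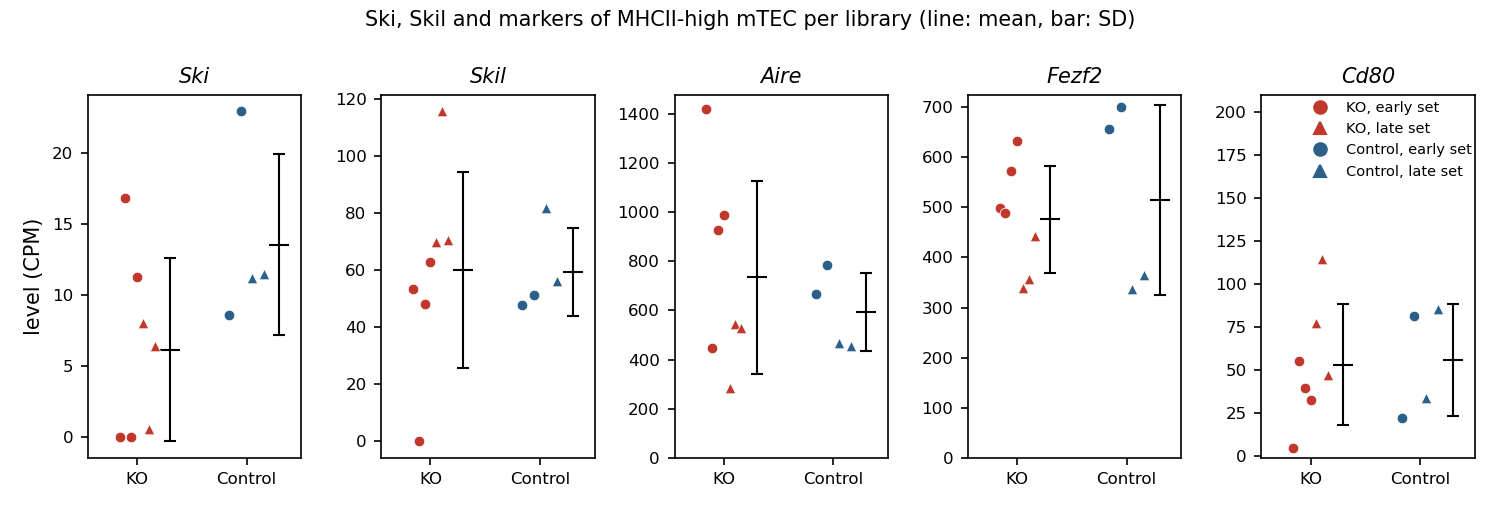
Levels of Ski, Skil, Aire, Fezf2 and Cd80 in CPM for the 7 KO and 4 Control libraries, with circles for the early set, triangles for the late set, and the mean ± SD beside each group. Ski reaches 16.9 CPM in KO and 23.0 CPM in Control, and each gene, Ski included, overlaps between the genotypes.

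Across all genes, no change between KO and Control passed the threshold of an adjusted p of 0.05 in the edgeR quasi-likelihood test: 0 of the 15410 genes tested (0%) were called higher and 0 (0%) lower. At an unadjusted p under 0.05, 252 genes (1.64%) were counted, of which 156 (1.01%) were higher and 96 (0.623%) lower in KO. All 7 KO libraries lay above all 4 Control libraries for 13 genes (0.0844%) and below them for 53 genes (0.344%). Were the labels placed at random over the 330 possible divisions of the libraries, each pattern would have a probability of at most 0.00303 per gene. The spread between libraries was wide, with a biological coefficient of variation of 1.17, and the median log2 fold change of all genes was -0.07. limma voom also called 0 genes, with 732 at an unadjusted p under 0.05. DESeq2 called 8 of 15353 genes (0.0521%), all higher in KO, and edgeR without a count filter, or with the low-count Control library kept, called Gstm3 alone. The genes described next are the 12 in each direction with the smallest unadjusted p among genes whose higher group had a median of at least 10 CPM. They did not pass and are given as values, and their small p is what chose them.

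The smallest p of all belonged to Gstm3, a mu-class glutathione transferase gene whose products join glutathione to reactive compounds, and Gstm1 ranked among the first 4 genes of higher level. Both lie in the Gstm cluster of chromosome 3, with Gstm2 between them. Their promoter windows are shown because they are the cluster's members among the leading genes and because SKI acts through SMAD proteins, whose binding element holds the letters CAGAC. The windows, from RefSeq (GRCm38.p6), run from 250 bases before to 50 bases after the start site, both on the minus strand, with CAGAC or its complement GTCTG in capitals.
Gstm3, chr3:107969125-107969424: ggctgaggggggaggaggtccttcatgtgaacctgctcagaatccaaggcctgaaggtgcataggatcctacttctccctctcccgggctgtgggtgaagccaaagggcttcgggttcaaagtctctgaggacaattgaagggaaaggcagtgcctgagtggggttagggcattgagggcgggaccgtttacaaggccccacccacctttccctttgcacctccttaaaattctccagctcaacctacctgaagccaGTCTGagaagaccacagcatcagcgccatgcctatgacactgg
Gstm1, chr3:108017769-108018068: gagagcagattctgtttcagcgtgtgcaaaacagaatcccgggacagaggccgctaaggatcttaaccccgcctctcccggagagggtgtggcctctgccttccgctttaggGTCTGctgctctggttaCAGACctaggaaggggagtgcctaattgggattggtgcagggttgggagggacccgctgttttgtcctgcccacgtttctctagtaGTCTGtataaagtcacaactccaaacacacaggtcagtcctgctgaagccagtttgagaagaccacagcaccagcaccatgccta
The Gstm3 window held 1 match on either strand and this Gstm1 window, 1 of 2 listed for that gene, held 3. Of 32851 promoter windows of 300 bases, 49.6% held at least 1 such match, so its presence sets neither gene apart. The core of the antioxidant response element, TGACNNNGC on either strand, was found in 12.4% of all windows and in neither of these, which says only that these letters are not in the windows shown.

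Gstm3 (ENSMUSG00000004038, chr3:107963696-107969283, GRCm38) had a lowest level of 122, a median of 387 and a highest level of 1616 CPM in KO, and 25.9, 8.95, 22.2 and 10.3 CPM in Control. Every KO library lay above every Control library, in both sets. Mean Gstm3 was 584 ± 513 CPM in KO (SD, n = 7) and 16.8 ± 8.49 CPM in Control (SD, n = 4), a log2 fold change of 5.12 with an SE of 0.75 (edgeR unadjusted p = 1.4e-05, adjusted p = 0.216). In the early set the means were 760 CPM in KO and 17.4 CPM in Control, and in the late set 350 CPM in KO and 16.3 CPM in Control. DESeq2 gave an adjusted p of 2.97e-14, edgeR without a count filter 0.0398 and edgeR with the low-count Control library 0.0289. Over the other settings, fits without 1 library included, the fold change kept its direction and the adjusted p ranged up to 1. The 2 Ski flox Control libraries of the gate, which entered no test, held 234 and 167 CPM on a common scale of all libraries, within the KO range and above all 4 Control libraries.

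The rest of the cluster differed from gene to gene. Gstm1 (chr3:108012255-108017973) had 384, 804 and 1332 CPM at the lowest, median and highest of the KO libraries, against 392, 313, 82.1 and 234 CPM in Control. Of the 7 KO libraries, 6 lay above every Control library, and the log2 fold change was 1.74 (SE 0.43, edgeR unadjusted p = 0.00157, adjusted p = 1). Gstm7, Gstm6 and Gstm2 had log2 fold changes of 2.40, 1.26 and 0.92, and Gstm5 and Gstm4 of 0.32 and 0.19, all with overlapping groups (SE 0.49 to 1.5). These 5 genes were chosen after the values of Gstm3 were seen. Stretches of 50 bases found in a Gstm3 transcript were shared with another Gstm gene in 15.8% of cases, and for Gstm1 in 8.88%, so a part of the reads of each could belong to another gene of the family.

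**Figure D2:**
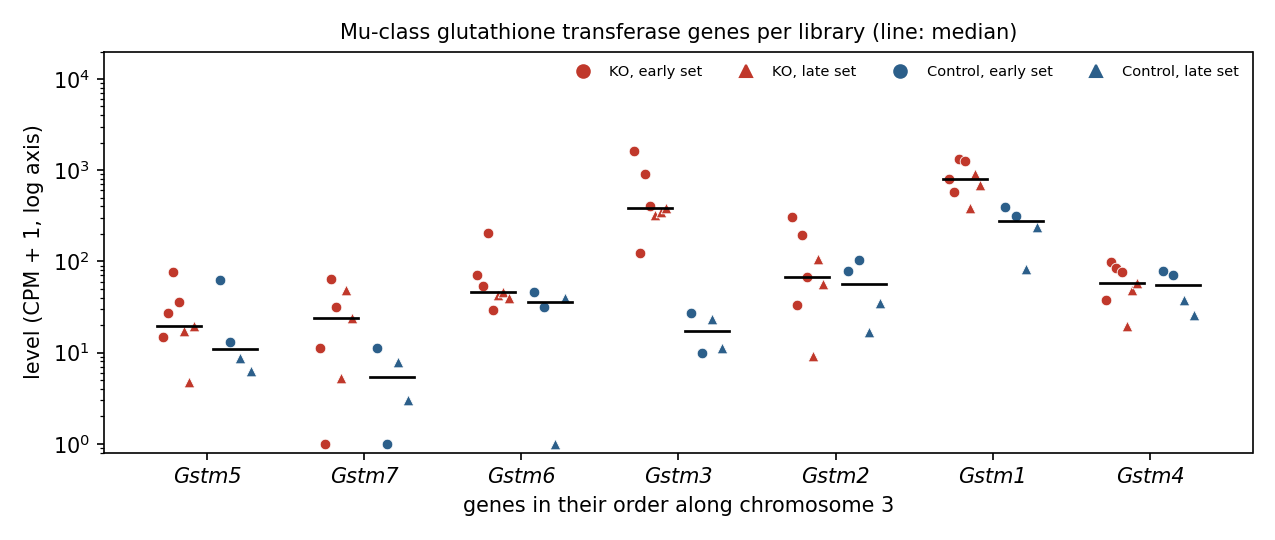
Levels of the 7 Gstm genes in CPM + 1 on a log axis, in their order along chromosome 3, with KO left of Control, circles for the early set, triangles for the late set and a line at each median. Gstm3 is the gene whose KO libraries, at 122 CPM or more, all lie above the Control libraries, at 25.9 CPM or less.

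Slurp1 encodes a secreted protein of the Ly6 family that binds acetylcholine receptors and is made by keratinocytes. It had 23.6, 45 and 116 CPM at the lowest, median and highest of the KO libraries, against 14.4, 4.47, 3.58 and 1.41 CPM in Control, and the groups did not overlap. The log2 fold change was 3.12 (SE 0.77, edgeR adjusted p = 1). Sncg, which encodes gamma-synuclein, also had no overlap, with 419, 523 and 1180 CPM in KO and 242, 368, 281 and 315 CPM in Control. The log2 fold change of Sncg was 1.13 (SE 0.30), the lowest among the 12 genes. Klk1b1, a member of the tandem family of glandular kallikreins, had 16.3, 46.5 and 165 CPM in KO and 6.32, 0, 8.69 and 6.84 CPM in Control, with a log2 fold change of 3.66 (SE 1.06). Reads of its near-identical relatives may have been divided among them, so its level is uncertain.

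Gatm, which encodes the first enzyme of creatine synthesis and is a tissue-restricted product of kidney and pancreas, had 55.7, 101 and 2823 CPM at the lowest, median and highest of the KO libraries, against 34.8, 37.2, 32.7 and 15.7 CPM in Control. Each KO library lay above each Control library, but the size of the difference rested on KO replicate 3: the log2 fold change was 4.15 (SE 1.21) with it and 2.36 without it. DESeq2, which replaced an outlying Gatm count in its fit, gave 2.29. Epb42, which encodes a protein of the red cell membrane skeleton, had 12.6, 64.1 and 117 CPM in KO and 14.6, 14.8, 11.8 and 10.7 CPM in Control, with 6 of 7 KO libraries above all Control libraries and a log2 fold change of 2.30 (SE 0.57). The summed erythroid markers were 4.47 to 633 CPM in KO and 6.14 to 107 CPM in Control, with Klf1 and Hbb-bt below the count filter. The 633 CPM was that of KO replicate 1, and the other KO libraries held at most 112 CPM. All 4 tested erythroid markers were positive, with a median log2 fold change of 1.70 (1.74 with the library set as a covariate), and the part of erythroid transcripts in the Epb42 level was not tested. Ceacam15, a member of the carcinoembryonic antigen family, had 19.7, 161 and 818 CPM in KO and 19.0, 8.17, 57.0 and 31.8 CPM in Control, with a log2 fold change of 3.24 (SE 0.91).

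The last 4 genes of higher level had overlapping groups. Tac2, which encodes the tachykinin neurokinin B, had a log2 fold change of 2.10 (SE 0.63). Cyp2f2, a cytochrome P450 of airway club cells, had 2.55 (SE 0.78), and Cpne4, a calcium-dependent membrane-binding copine, had 2.09 (SE 0.63). Tbx3os2, a long noncoding RNA, had counts in 5 of 7 KO libraries, up to 51.5 CPM, and none in Control. Its pooled KO level was 90.2-fold that of Control placed at 3 counts over the group. This limit covers counting error only, not the spread between libraries. The log2 fold change of Tbx3os2 was 9.04 with an SE of 2.64 and did not pass in edgeR. KO replicate 4 held 297 of its 497 counts, and without that library the limit was 44.2-fold. The protocol does not mark strand, so its reads cannot be told apart from those of any gene on the other strand. Besides Gstm3, Slurp1, Epb42, Gatm, Klk1b1 and Ceacam15, the DESeq2 calls held Inmt, a methyltransferase gene, and Tmem252, both outside the naming rule and picked once their values were known. Both had no count in Control, with up to 256 CPM for Inmt in 4 KO libraries and up to 37.1 CPM for Tmem252 in 6 KO libraries, at least 207-fold and 76.8-fold higher on the same floor. KO replicate 2 held 866 of the 1141 Inmt counts, and without it the limit was 55.8-fold, while that of Tmem252 was 56.8-fold without KO replicate 1. For Slurp1, Epb42, Gatm, Klk1b1 and Ceacam15, DESeq2 gave adjusted p values of 0.00787 to 0.0310, and the lowest adjusted p in any other setting was 0.476.

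Among the 12 genes of lower level, Crb1, Slc14a2 and Scap had no overlap between the genotypes. Crb1 encodes a polarity protein of the apical membrane, known above all from the retina. It had counts in 1 of 7 KO libraries, at 1.09 CPM, against 4.31, 13.6, 17.1 and 7.44 CPM in Control. Its log2 fold change was -5.85 (SE 1.54, edgeR unadjusted p = 0.00229, adjusted p = 1). Slc14a2, the kidney urea transporter gene, had 0, 0 and 2.13 CPM at the lowest, median and highest of the KO libraries, against 10.6, 20.2, 5.88 and 31.4 CPM in Control, with a log2 fold change of -5.33 (SE 1.57). Scap encodes the escort protein that carries SREBP factors to the Golgi when sterols are low. It had 3.77, 18.1 and 31.2 CPM in KO and 47.1, 72.4, 60.6 and 68.2 CPM in Control, with a log2 fold change of -1.83 (SE 0.55). Scap was low in every KO library of both sets, at means of 14 CPM in KO and 59.7 CPM in Control in the early set, and 22 CPM in KO and 64.4 CPM in Control in the late set.

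Id3 is a target of BMP and TGF-beta signals and encodes an inhibitor of basic helix-loop-helix factors. It had 56.2, 68.1 and 133 CPM at the lowest, median and highest of the KO libraries, against 153, 154, 118 and 110 CPM in Control. Of the KO libraries, 6 of 7 lay below every Control library, and the log2 fold change was -0.79 (SE 0.29, edgeR unadjusted p = 0.0189, adjusted p = 1). In the early set mean Id3 was 88.8 CPM in KO and 154 CPM in Control, and in the late set 62.2 CPM in KO and 114 CPM in Control. Rgs4, a regulator of G protein signalling, had 16, 27.0 and 52.6 CPM in KO and 56.6, 526, 30.4 and 70.6 CPM in Control. Control replicate 3 carried most of that difference: the log2 fold change of Rgs4 was -2.34 (SE 0.66) over all libraries and -0.64 without it.

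Cdcp1, a transmembrane protein phosphorylated by SRC kinases, and Ociad2 had log2 fold changes of -1.69 (SE 0.51) and -1.72 (SE 0.53). Kdm3a, a histone H3 lysine 9 demethylase, had -1.32 (SE 0.46) and Edc4, a scaffold of mRNA decapping, had -2.17 (SE 0.75). Crip2, a LIM domain protein, had -0.88 (SE 0.30), Wfdc18, a secreted whey acidic protein domain factor, had -0.92 (SE 0.32), and Clca3b, of the calcium-activated chloride channel regulator family, had -3.16 (SE 1.10). Control replicate 3 was the highest library for Kdm3a and Clca3b, and without it their log2 fold changes were -0.63 and -2.14. In each of these 7 genes 5 or 6 of the 7 KO libraries lay below every Control library.

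**Figure D3:**
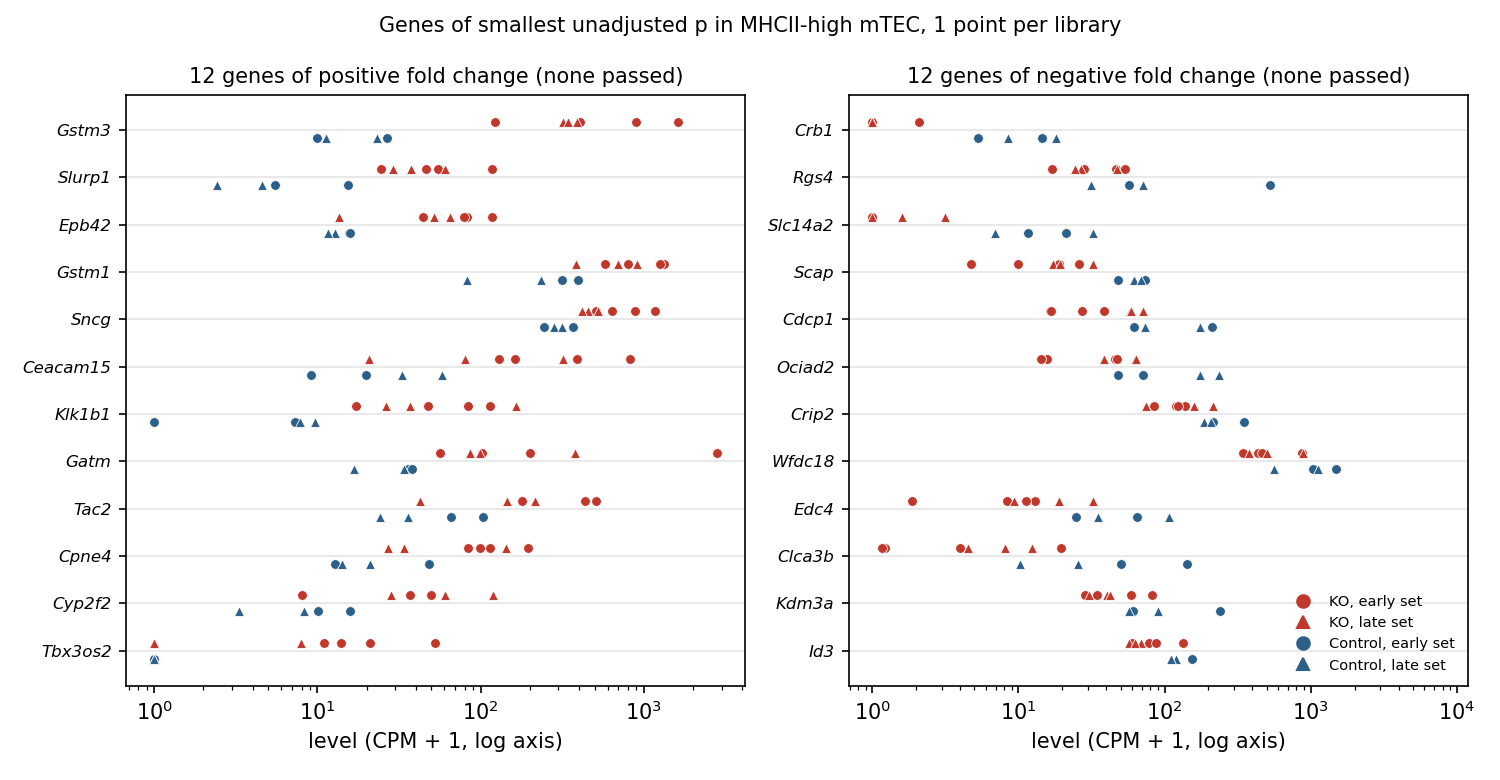
Levels in CPM + 1 on a log axis of the 24 genes of smallest unadjusted p, 12 of positive fold change on the left and 12 of negative on the right, with the KO points above the Control points of each gene, circles for the early set and triangles for the late set. The genotypes are apart for Gstm3, Slurp1, Sncg, Klk1b1 and Gatm on the left and for Crb1, Slc14a2 and Scap on the right, and no gene passed the adjusted threshold.

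The groups of genes that mature mTEC are known for were then read as lists. Over 31 lists, 409 distinct members were tested and 0 passed (0% of all genes passed). At an unadjusted p under 0.05 stood 13 members (3.18%), beside 1.64% of all genes. The lists and members were chosen with earlier results of these data known, so these shares are no test of enrichment. Higher in KO among them were S100a8, Nfkb2, Ccl2, Apoa1, Ifit1, Blnk, Fcer2a and Bmpr1b, and lower were Id3, Top2a, Lgals9, Mup4 and Ret; several of these were chosen after their values were seen. Otherwise up to 4 members per list with the highest mean CPM are named.

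**Figure D4:**
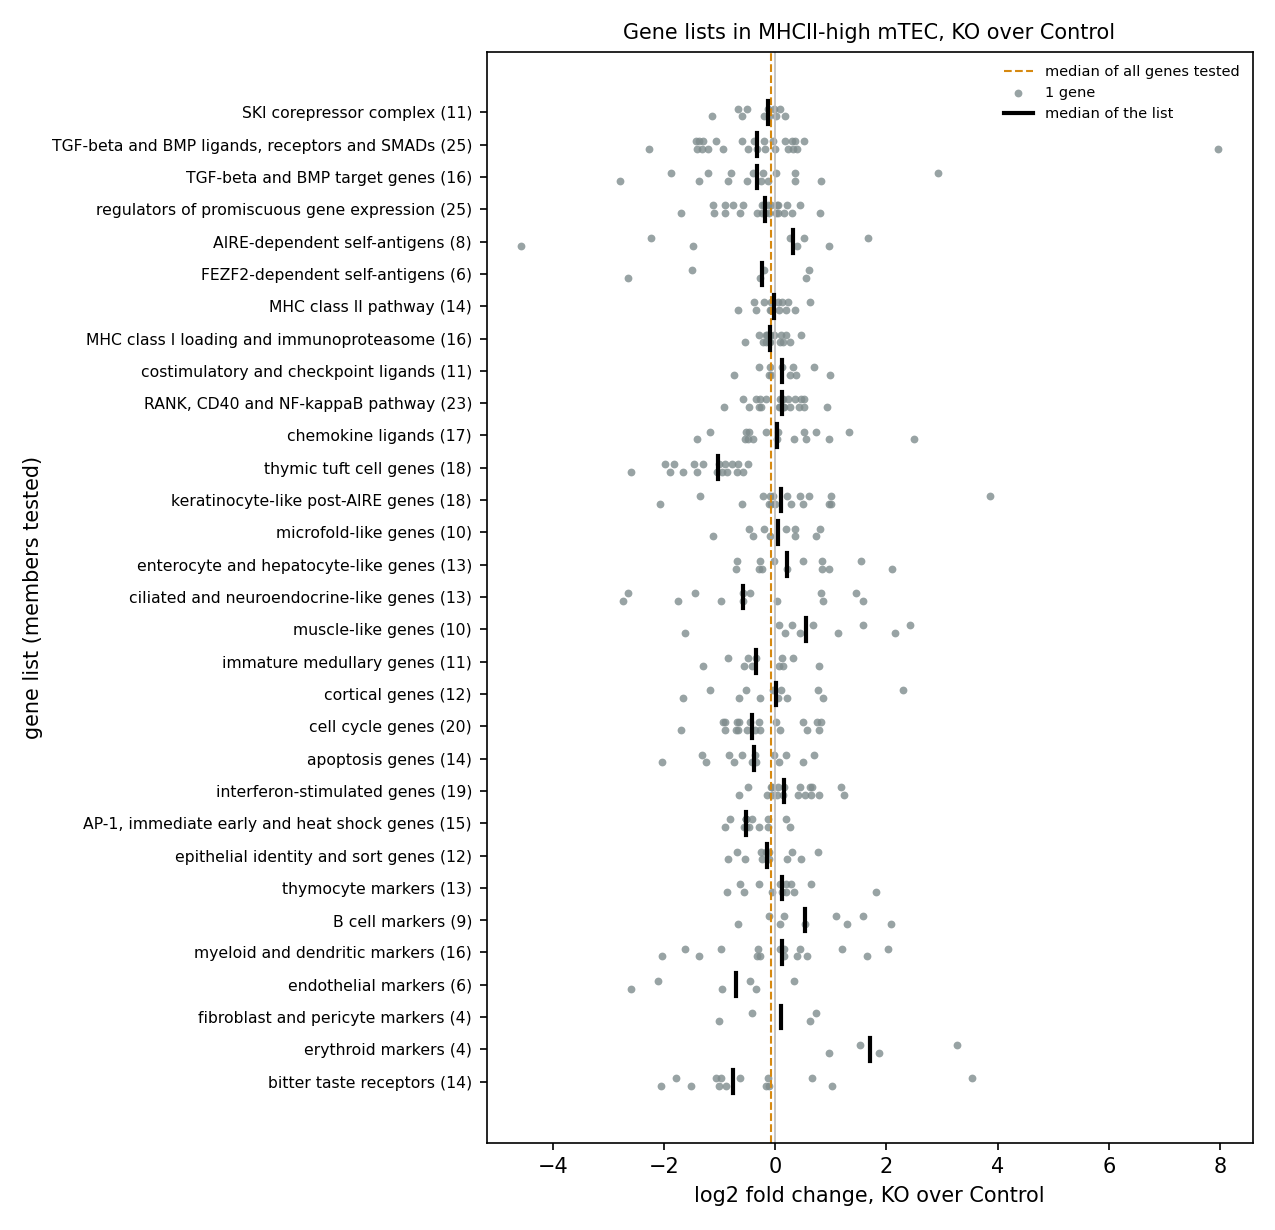
Log2 fold change of KO over Control for each tested member of the 31 gene lists, with a black bar at each list's median and a dashed line at the median of all genes tested, -0.07. The tuft cell list lies wholly below 0 with a median of -1.03, the MHC class II list is centred on -0.01, and no point passed the adjusted threshold.

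No tested partner of SKI or member of the pathway it limits passed the test. Of 11 tested genes of the SKI corepressor complex, 3 had positive and 8 negative fold changes, with a median log2 fold change of -0.13. Hdac2, Ncor1, Hdac1 and Hdac3, the deacetylases and the platform through which SKI silences genes, had -0.13, 0.09, -0.03 and -0.12 (SE 0.27 to 0.41). Of 25 tested TGF-beta and BMP ligands, receptors and SMADs, 8 were positive and 17 negative, with a median of -0.32, and 5 further members did not reach the count filter. Tgfb2, a TGF-beta ligand chosen after its values were seen, had 19.1, 39.6 and 68.2 CPM at the lowest, median and highest of the KO libraries and 29.3, 24.5, 31.2 and 33.8 CPM in Control, with a log2 fold change of 0.31 (SE 0.50). Smad1, which carries BMP signals, had -0.38 (SE 0.34), Smad4, the shared partner, -0.18 (SE 0.53), Smad2, which carries TGF-beta signals, -0.19 (SE 0.35), and the BMP receptor Bmpr1a 0.17 (SE 0.72).

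The type II TGF-beta receptor Tgfbr2 and the inhibitor Smad7, both chosen after the values were seen, were low in both genotypes: Tgfbr2 had at most 6.21 CPM in KO and 11.5 CPM in Control, and Smad7 at most 11.8 CPM in KO and 13.0 CPM in Control. Bmpr1b, a type I BMP receptor, was counted in KO alone, with up to 19.3 CPM and a median of 3.55 CPM. Its pooled KO level was 43.7-fold that of a Control group placed at 3 counts, or 28.8-fold without KO replicate 4. This limit covers counting error only, and 2 KO libraries had no Bmpr1b count. Of 16 tested target genes, 5 were positive and 11 negative, with a median of -0.33. In the early set 3 of 16 were positive (median -0.38), and in the late set 8 of 16 (median -0.03). Junb, an AP-1 subunit, had -0.13 (SE 0.20), Cdkn1a, the cell cycle inhibitor p21, had -0.40 (SE 0.37) and Cdkn2b, the inhibitor p15, had 0.36 (SE 0.43). Id2, another inhibitor of helix-loop-helix factors, moved with the library set. Its mean in the early set was 191 CPM in KO and 269 CPM in Control, and in the late set 1149 CPM in KO and 1125 CPM in Control.

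Antigen presentation and its control by RANK and CD40 were close to the median of all genes. The MHC class II list had 7 of 14 members positive and a median of -0.01. Cd74, the invariant chain, had a lowest level of 8010, a median of 11291 and a highest level of 13127 CPM in KO, against 11577, 9262, 9858 and 11523 CPM in Control, with a log2 fold change of 0.05 with an SE of 0.17. H2-Ab1, H2-Aa and H2-Eb1, the chains of the class II molecules, had -0.07, 0.07 and -0.09 (SE 0.18 to 0.28). The list's median was -0.20 in the early set and 0.26 in the late set. The 16 genes of MHC class I loading and the immunoproteasome had 6 positive members and a median of -0.09, with B2m at -0.09 (SE 0.17).

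In the RANK, CD40 and NF-kappaB list, 15 of 23 members were positive, with a median of 0.12. Nfkbia, the inhibitor that NF-kappaB itself induces, had 0.08 (SE 0.14), Relb, the subunit needed for mTEC development, had 0.27 (SE 0.26), Cd40 had 0.12 (SE 0.35) and Birc3, an inhibitor of apoptosis and of noncanonical signalling, had 0.22 (SE 0.27). Nfkb2, the precursor of p52, had 190, 267 and 808 CPM at the lowest, median and highest of the KO libraries, against 164, 295, 130 and 206 CPM in Control. Its log2 fold change was 0.93 (SE 0.43, edgeR unadjusted p = 0.0483, adjusted p = 1). Of 11 costimulatory and checkpoint ligands 6 were positive, with a median of 0.12 (early set -0.18, late set 0.28). Icam1, an adhesion ligand, had 0.37 (SE 0.34), Cd274, which encodes PD-L1, had -0.29 (SE 0.40), and Lgals9, a galectin, had -0.74 (SE 0.33).

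Of 25 regulators of promiscuous gene expression, Aire and Fezf2 among them, 9 were positive, with a median of -0.17. Sirt1, the deacetylase that activates AIRE, had 0.05 (SE 0.21), while Ehf, an epithelial ETS factor, had -0.24 (SE 0.46). Among 8 tested self-antigen genes known to depend on AIRE, 5 were positive and 3 negative, with a median of 0.33. Csn2, the milk protein beta-casein, had 1281, 2075 and 2281 CPM at the lowest, median and highest of the KO libraries and 1975, 1934, 1107 and 471 CPM in Control, with a log2 fold change of 0.52 (SE 0.33). S100a8, a calcium-binding alarmin, had 0.98 (SE 0.44), Crabp1, a retinoid-binding protein, -1.48 (SE 0.82) and Tff3, the intestinal trefoil factor, 0.26 (SE 0.80). Of 6 tested genes known to depend on FEZF2, 2 were positive, with a median of -0.24, and Maoa, a monoamine oxidase, and Apoc3, a lipoprotein component, had -0.20 (SE 0.55) and -1.49 (SE 0.70).

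The list of lowest median over all 11 libraries was that of thymic tuft cells, chemosensory cells that make IL-25 and use the bitter taste cascade. All 18 members had negative fold changes, with a median log2 fold change of -1.03 beside -0.07 for all genes, and none passed (0 of 18 at an unadjusted p under 0.05). Gnat3, the taste G protein gustducin, had 0, 129 and 441 CPM at the lowest, median and highest of the KO libraries, against 65.8, 169, 1369 and 532 CPM in Control, with a log2 fold change of -1.89 (SE 1.12). Avil, an actin-binding protein of tuft cells, had -1.30 (SE 1.0), Sh2d6 had -1.05 (SE 1.19) and Gnb3, the partner subunit of gustducin, -0.48 (SE 0.92). The high values were those of Control replicates 4 and 5, both in the late set. The summed list held 168, 1120 and 1759 CPM at the lowest, median and highest of the KO libraries, and 493, 532, 4656 and 3135 CPM in Control. Within the late set the mean sum was 1465 CPM in KO and 3896 CPM in Control, and 0 of 18 members were positive with a median of -1.31. Within the early set it was 619 CPM in KO and 513 CPM in Control, and 11 of 17 members were positive with a median of 0.12. With the set as a covariate the median was -0.68 with 2 of 18 members positive, and the endothelial and thymocyte lists were then lower.

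Pou2f3, the master regulator of tuft cells, and Il25, chosen for their roles after the values were seen, had the same split. Pou2f3 reached 57.2 CPM in KO and was 33.0, 6.23, 106 and 77.0 CPM in Control, and Il25 reached 15.5 CPM in KO and was 0.574, 0, 75.4 and 41.8 CPM in Control. Of the bitter taste receptors, 14 of 40 passed the count filter, with 3 positive and a median of -0.76, and in the early set 5 of the 6 tested there were positive. With the set as a covariate 10 of 14 were positive, with a median of 0.73. The sequences of these receptors were not compared, so whether similar stretches affected their counts is not known. In bulk libraries, fewer cells of a type and less RNA per cell cannot be told apart.

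Other late fates of mTEC had members on both sides of 0. The keratinocyte-like list had 9 of 18 positive (median 0.10, early set 0.56, late set -0.39), with Ly6d at 0.51 (SE 0.47) and Calm4 at -2.06 (SE 1.27); Calm4 was 937 CPM in Control replicate 4, against 5.74, 28.2 and 22.3 CPM in the other Control libraries and at most 110 CPM in KO. The microfold-like list had 5 of 10 positive (median 0.06, and -0.10 with the set as a covariate), with Gp2, the bacterial uptake receptor of microfold cells, at -1.13 (SE 0.58). The enterocyte and hepatocyte-like list had 7 of 13 positive (median 0.21), with Reg3g, an antibacterial lectin, at 0.21 (SE 0.33) and Apoa1 at 2.11 (SE 0.85). The muscle-like list had 9 of 10 positive (median 0.56), with Ttn at 0.31 (SE 1.19) and Actc1 at 1.13 (SE 2.05), and the ciliated and neuroendocrine-like list had 5 of 13 positive (median -0.57), with Tppp3 at -0.46 (SE 0.61).

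The immature medullary list had 5 of 11 positive (median -0.34), with 2 of 9 positive in the early set (median -0.61) and 7 of 11 in the late set (median 0.33). Among its members were Krt14 at 0.12 (SE 0.30), Ly6a at 0.31 (SE 0.29) and Trp63, the regulator of epithelial progenitors, at -1.29 (SE 0.74). Ccl21a, the chemokine of immature medullary cells, had no count in the 11 libraries. How reads matching several genes were treated was not examined, so the absence of counts does not show that Ccl21a was silent. The cortical list had 6 of 12 positive (median 0.01), with the thymocyte chemoattractant Ccl25 at -1.17 (SE 0.67). Trp63 and Apoa1 were chosen after their values were seen.

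Among general programmes, cell cycle genes had 7 of 20 positive members and a median of -0.41, and the 2 sets differed, with -1.27 in the early set and 0.52 in the late set. In the early set the summed list was 2102 CPM in Control replicate 1, 485 CPM in Control replicate 3 and 561 to 936 CPM in KO. Top2a, the topoisomerase of dividing cells, had 8.88, 23.4 and 83.8 CPM at the lowest, median and highest of the KO libraries, against 284, 33.5, 65.5 and 51.5 CPM in Control, and Control replicate 1 was the highest of all. Apoptosis genes had 4 of 14 positive (median -0.39), with Mcl1 at -0.34 (SE 0.27) and the death receptor Fas at 0.69 (SE 0.38). AP-1, immediate early and heat shock genes, which also respond to tissue dissociation, had 2 of 15 positive (median -0.52), with Fos at -0.52 (SE 0.63).

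Interferon-stimulated genes had 13 of 19 positive and a median of 0.16. Ifit1, an RNA-binding antiviral effector, had 210, 296 and 801 CPM at the lowest, median and highest of the KO libraries, against 105, 198, 95.1 and 235 CPM in Control. The log2 fold change was 1.18 (SE 0.41, edgeR unadjusted p = 0.0133, adjusted p = 1). The summed list was 2904 to 4367 CPM in KO and 1943 to 3296 CPM in Control. Of 17 chemokine ligands 9 were positive, with a median of 0.03 (early set -0.32, late set 0.33). Ccl22, which attracts CCR4-bearing thymocytes, had 0.96 (SE 0.97) and Cxcl10, which attracts CXCR3-bearing cells, had 0.56 (SE 0.63). Ccl2, which attracts monocytes, had 5.14, 67.9 and 248 CPM at the lowest, median and highest of the KO libraries, against 42.8, 17.5, 7.41 and 10.5 CPM in Control, with a log2 fold change of 2.50 (SE 0.94).

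Genes of the epithelial gate and of other cells were read alongside. Epithelial identity genes had 4 of 12 positive (median -0.14, early set 0.15, late set -0.13), with Krt8 at 0.30 (SE 0.32) and Epcam at -0.12 (SE 0.23). Summed thymocyte markers ranged from 11.8 to 1492 CPM in KO and from 126 to 1315 CPM in Control, and 3 of the 4 early KO libraries held 74.6 CPM or less. Of 13 thymocyte markers 8 were positive (median 0.12), but with the set as a covariate 5 were positive and the median was -0.76, with -1.06 in the early set and 0.44 in the late set. Ptprc, which encodes the CD45 excluded by the gate, had 0, 9.72 and 328 CPM at the lowest, median and highest of the KO libraries, against 71.2, 32.3, 315 and 373 CPM in Control. The part of such transcripts in the results above was not tested.

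Summed B cell markers were 572 to 2125 CPM in KO and 511 to 886 CPM in Control, with 7 of 9 members positive (median 0.53). With the set as a covariate the median of this list was 0.15, and it was 0.55 in the early set and 0.53 in the late set. Blnk, an adaptor of B cell receptor signalling, had 434, 515 and 1603 CPM at the lowest, median and highest of the KO libraries, against 280, 584, 294 and 363 CPM in Control, with a log2 fold change of 1.09 (SE 0.42). The sums of the whole list in these Control libraries were 511, 886, 547 and 869 CPM, so Blnk alone made up a large part of them. Fcer2a, which encodes CD23, had 2.08 (SE 0.90), while Pax5, which defines the B lineage, had a median of 2.90 CPM in KO and 4.02, 1.56, 3.58 and 0.805 CPM in Control. Myeloid and dendritic markers had 9 of 16 positive (median 0.13), with Lyz2 at 0.57 (SE 0.27) and sums of 1335 to 3021 CPM in KO and 1084 to 2268 CPM in Control. Endothelial markers had 1 of 6 positive, with a median of -0.71, of -1.71 with the set as a covariate, of -1.95 in the early set and of -1.04 in the late set. Among them were Plvap and Tek at -0.35 (SE 1.36) and -0.96 (SE 1.28), and Tie1 had no count. Esam, which encodes an endothelial adhesion molecule, lay below every Control library in all 7 KO libraries, with at most 18.1 CPM in KO and 26.7, 21.2, 22 and 39.2 CPM in Control. Such a lack of overlap was seen for 53 of the 15410 genes tested (0.344%). Members of the lists, Esam included, were chosen with earlier results of these data known. Of 10 fibroblast and pericyte markers 6 did not reach the count filter, and of the 4 tested 2 were positive (median 0.11), with Rgs5 at -0.42 (SE 0.54).

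The number of genes with a count averaged 16737 ± 3487 in KO (SD, n = 7) and 19343 ± 956 in Control (SD, n = 4), so that KO minus Control was -2605 genes (exact two-sided permutation p = 0.182, adjusted 0.455). It was -4731 genes in the early set (exact permutation p = 0.133, smallest possible 0.0667) and 279 genes in the late set (exact permutation p = 0.8). Without KO replicates 2 and 3 it was -736 genes (exact permutation p = 0.476).

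**Figure D5:**
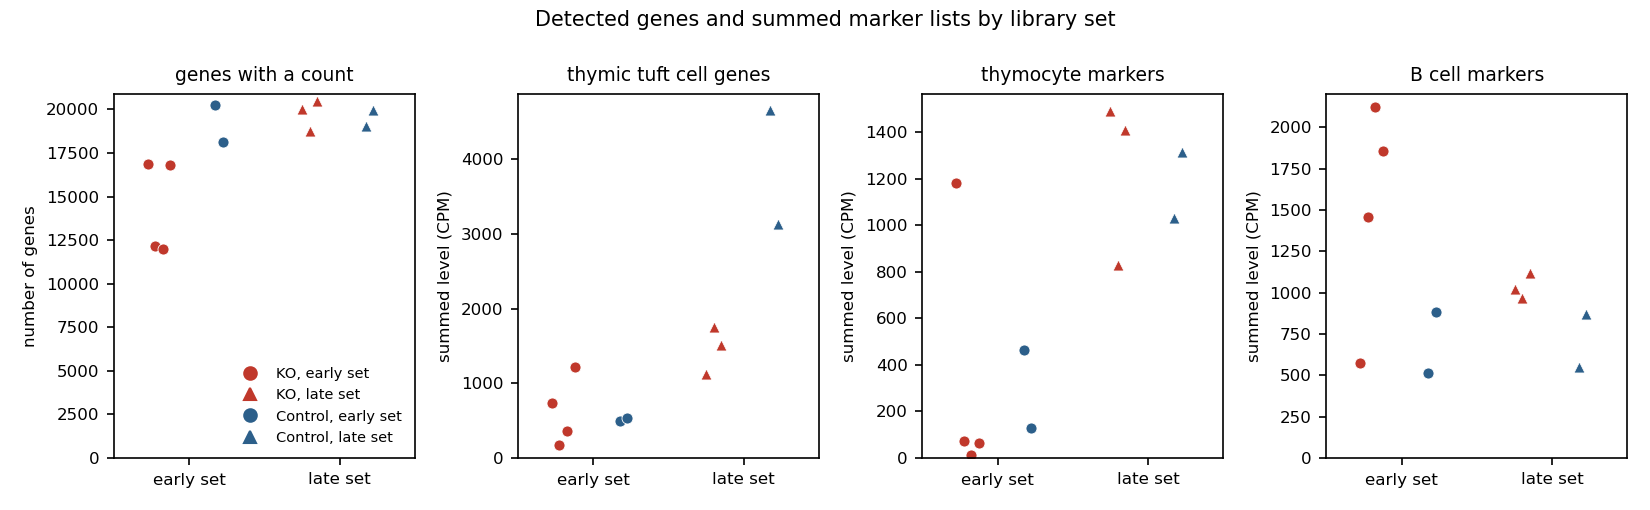
Genes with a count and summed CPM of tuft, thymocyte and B cell lists for each library, with the early set left and the late set right, and KO left of Control within each set. The 2 late Control libraries hold 3135 and 4656 CPM of tuft cell genes, above all KO libraries, while the early libraries of both genotypes hold 1223 CPM or less.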

How the data were processed

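The deposited table holds whole-number counts per Ensembl gene for each library, without normalisation by the authors, as its unequal column totals show. Per the submitters' processing notes, FastQC 0.11.3, HTSeq 0.4.1, Picard 1.134, SAMtools 1.2 and the build GRCm38 were used. For the aligner, the annotation release and the strand setting: not given in the sources used here. Libraries came from 200 sorted cells each, per the labels' protocols. Of 53465 gene identifiers, 53274 matched GENCODE release M21, which gave symbols and positions.

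Libraries were grouped by cell type and genotype, and replicate numbers only tell libraries apart. The minimum total was 100000 counts. Of 31647 genes with a count, filterByExpr (minimum count 10, minimum total 15) kept 15410. KO was compared with Control by edgeR 4.0.16 (R 4.3.3, TMM, glmQLFit, glmQLFTest, no covariate). Benjamini-Hochberg adjustment was over all genes tested, with a threshold of 0.05. The fit was also run on simulated counts. That run changed only genes of higher level and lower spread, so it does not show what could be detected among noisier genes. SE was derived from the F statistic. Single values were compared by exact permutation tests of log2(CPM + 1) in SciPy 1.17.1. Alternatives used RLE factors, no filter, 10 CPM in 4 libraries, DESeq2 1.42.0 (which replaced outlying counts in 227 genes), limma 3.58.1 voom, all 40 libraries in 9 groups, set or detected genes as covariate, each set alone, the low-count library kept, and each library left out.

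Named genes were Ski, Skil, Aire, Fezf2 and Cd80, the 12 of smallest p in each direction whose higher group had a median of 10 CPM or more, and up to 4 members per list, leaving out Xist, Y-linked, mitochondrial and unnamed genes. The members and lists were chosen with earlier results of these data known. Of the 471 distinct list genes, 409 were tested.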

Additional observations from a re-analysis of the deposited data

Results flagged for a closer look

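In 60 groups of values (29 named genes and the number of detected genes, in KO and in Control), the gap of the most extreme library to its nearest neighbour was set against the whole range of the group, and 6 were large for the group's size. Chance alone gives about 1 in 20. Skil had no count in KO replicate 2 (gap 0.818 of the range), and Cd80 was low in KO replicate 1 (0.592). Crb1 was counted in KO replicate 1 alone (1.0) and Slc14a2 was highest in KO replicate 7 (0.593). Among Control libraries, Klk1b1 had no count in replicate 3 (0.876) and Gatm was lowest in replicate 5 (0.851). The log2 fold change of Cd80 was -0.07 over all libraries and 0.14 without KO replicate 1.

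The 2 MHCII-high mTEC libraries labelled Ski flox Control entered no test, and 3 of the 12 genes of higher level in KO were above all 4 Control libraries in both of them. Gstm3 held 234 and 167 CPM there, against 8.97 to 24.6 CPM in Control, and Ceacam15 held 126 and 124 CPM, against 8.19 to 56.4 CPM in Control. Klk1b1 held 50 and 15.9 CPM, against 0 to 8.60 CPM in Control. Of the 12 genes of lower level, Crb1, Rgs4, Scap and Kdm3a were below all Control libraries in both. Scap held 18.3 and 28.8 CPM, against 44.9 to 72.5 CPM in Control, while Slc14a2, with 13.1 and 5.37 CPM, lay above all KO libraries. These values use a common scale of all 40 libraries, and the difference between the control genotypes was not tested.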

How the results depend on the processing

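No paired analysis was possible because the labels carry no replicate numbers that KO and Control libraries share. The count of called genes was 0 in the edgeR test, 1 without a count filter, 1 with the low-count Control library kept and 8 by DESeq2, and 0 in every other setting run. At an unadjusted p under 0.05 it ranged from 175 genes with the 10 CPM filter to 3193 without a filter, with 865 in the late set and 453 in the early set. The median log2 fold change of all genes was -0.07 and shifted to 0.08 with the low-count library kept and to -0.35 by limma voom. Of 568 alternative values for 25 named genes other than Ski, Aire, Fezf2 and Cd80, 551 kept direction and call, 8 passed the threshold in addition and 9 reversed, all of them of Skil, which was -0.59 by limma voom, -0.0051 with the set as covariate, -0.27 in the early set and -0.22 to 0.24 without 1 library. Aire was -0.018 in the late set. Fezf2 was 0.13 in the late set, 0.070 with the low-count library and -0.27 to 0.066 without 1 library. Cd80 was 0.44 in the late set, 0.063 with detected genes as covariate, 0.20 with the low-count library, 0.0063 without KO replicates 2 and 3 (an alternative chosen after seeing the data) and -0.38 to 0.21 without 1 library. In the exact permutation tests the Ski difference was -1.70 without KO replicates 2 and 3 (exact p = 0.0476) and -2.05 to -1.36 without 1 library; Aire was -0.089 in the late set and -0.023 to 0.36 without 1 library, Fezf2 0.10 and -0.25 to 0.10, and Cd80 0.47 and -0.62 to 0.22. Detected genes differed by 279 in the late set, 75.7 there after thinning to 3000000 counts (also chosen after seeing the data), 387 with the low-count library kept and -3231 to -1814 without 1 library. The cause was not tested for any of these. With 7 and 4 libraries the smallest possible exact p was 0.00303.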

Other observations

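On the same common scale, Gstm3 was listed at 0 CPM in every cortical epithelial library but 1, KO replicate 7, which held 4.19 CPM. In MHCII-low mTEC it was 397 CPM in KO replicate 3 and 0 in the other 6 KO libraries, and between 0 and 12.4 CPM in the 4 Control libraries. That KO library also held 510 CPM of Aire, against 5.06 to 362 CPM in the other MHCII-low KO libraries and 4.06 to 207 CPM in MHCII-low Control. The 362 CPM was that of KO replicate 4, which held 0 CPM of Gstm3. The 207 CPM was that of Control replicate 3, which held 8.14 CPM of Gstm3.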
